A study of Mus musculus with 8 samples.

Results

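The nuclear receptor genes apart from the REV-ERB pair were followed in mouse liver as a family of 44 listed genes. A gene was taken as measured where at least 1 probe set, the group of short probes that reports a transcript on the array, carried its symbol and no other. This held for 41 of the 44, out of 18193 genes measured in all. Nr1h2, Nr1h5 and Nr2e3 had no such probe set and were not analysed here. Of the 41, 14 had 1 probe set and 27 had several, 111 probe sets together. For each gene the brightest probe set on average stood for the gene, whichever way it differed between the genotypes.

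Livers came from 8 male C57BL/6 mice aged 92 to 101 days, 4 labelled MTAP+/- (heterozygous) and 4 labelled MTAP+/+ (wild type), with 1 Affymetrix array per mouse. Mtap encodes methylthioadenosine phosphorylase, an enzyme of methionine salvage. The sources used here do not say how the allele was altered, nor the hour and feeding state at collection. The deposited values are log2 signals, so a difference of 1 is a doubling. Probes differ in brightness, so no level is compared between genes, and "dim" below means only a mean signal under that of the median gene, 5.12.

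Nuclear receptors are transcription factors that carry a DNA-binding domain and a ligand-binding domain. Many are switched by small lipophilic molecules such as steroids, bile acids, oxysterols, fatty acids, retinoids and thyroid hormone, exchange corepressors for coactivators when ligand binds, and sit on DNA as monomers, homodimers or heterodimers with a retinoid X receptor. In liver they are known for setting drug clearance, bile acid and cholesterol handling, fatty acid oxidation and the fasting response, and several of their transcripts cycle over the day.

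Mtap signal was 6.72, 6.92, 6.99 and 6.95 in heterozygous livers 1 to 4 and 7.82, 7.57, 7.69 and 7.69 in wild-type livers 1 to 4, a log2 change of -0.80 ± 0.10 (SE; limma, Benjamini-Hochberg adjusted p = 0.0281), which matches the labels. Hepatocyte markers averaged 12.3 to 12.5 in heterozygous and 12.2 to 12.5 in wild-type livers. Kupffer cell and macrophage markers averaged 8.05 to 8.53 and 7.88 to 8.17, ranges that overlapped. Of these 14 markers 11 were higher and 3 lower in heterozygous livers. An unadjusted p under 0.05 was found for 5 (35.7%, beside 9.14% of all genes), all 5 higher. The lower markers were Cd163 at -0.98 ± 0.50 (SE), Clec4f at -0.27 ± 0.43 (SE) and Csf1r at -0.02 ± 0.13 (SE). Marco was 9.97 in heterozygous liver 2 against 4.7 to 7.6 elsewhere. Stellate, endothelial, cholangiocyte and lymphocyte marker lists had overlapping ranges. On the first principal component, which held 28.3% of the variance, heterozygous livers 1, 3 and 4 and wild-type liver 4 lay together between -24.9 and -23.4, and the other 4 livers between 3.58 and 35.6, so the strongest axis of the arrays did not follow the genotype. The next component did separate the genotypes, with heterozygous livers between -44.1 and -4.03 and wild-type livers between 11.3 and 29.5. Heterozygous liver 2 stood apart at the heterozygous end of it, at -44.1 against -14.8 to 29.5 in the rest. That liver also had the lowest 3' minus 5' signal of Actb and Gapdh, a measure of RNA integrity, at 0.71 against 0.88 to 1.12. The part of that liver in the target gene values below was not tested.

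No nuclear receptor gene passed the threshold between the genotypes. At a Benjamini-Hochberg adjusted p under 0.05 in limma, fitted over all genes, 0 of 41 receptor genes were called, and the lowest adjusted p among them was 0.236. The background is small, since 9 of 18193 genes (0.0495%) were called. That number was 3 without heterozygous liver 1, 5, 4 and 5 without wild-type liver 1, 2 and 3 in turn, and 20 without wild-type liver 4. At an unadjusted p under 0.05, 9 of 41 receptor genes (22%) stood out, beside 9.14% of all genes. Bright genes reached that p more often. Above the signal of the median gene it was 8 of 28 receptor genes (28.6%), beside 13.7% of all such genes. The share of 9.14% is therefore a low comparison for any list of bright genes, here and below. Higher in heterozygous livers at that p were 6 (Ppara, Nr2c2, Esr1, Nr3c2, Rora and Nr5a2), beside 4.40% of all genes. Lower were 3 (Nr1i3, Nr2f6 and Nr5a1), beside 4.74%. The count of 9 was 3 without heterozygous liver 3, 5 without heterozygous liver 4 and 5 without wild-type liver 1. Over all genes the count was 1662 as reported, and 1438, 1186 and 1140 in the same fits in turn. Groups did not overlap for 2 of 41, Nr1i3 and Rora, beside 4.64% of all genes.

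Across the family the directions were mixed, with 24 genes higher and 17 lower and a median log2 change of 0.01, beside -0.02 over all genes. Dim signals, for which a difference is hardest to see in these arrays, were found for 13 of the 41, among them Pgr, Hnf4g, Nr0b1, Nr2e1 and Nr2f1. Nr5a1 is the 1 dim gene among the 9.

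**Figure D1:**
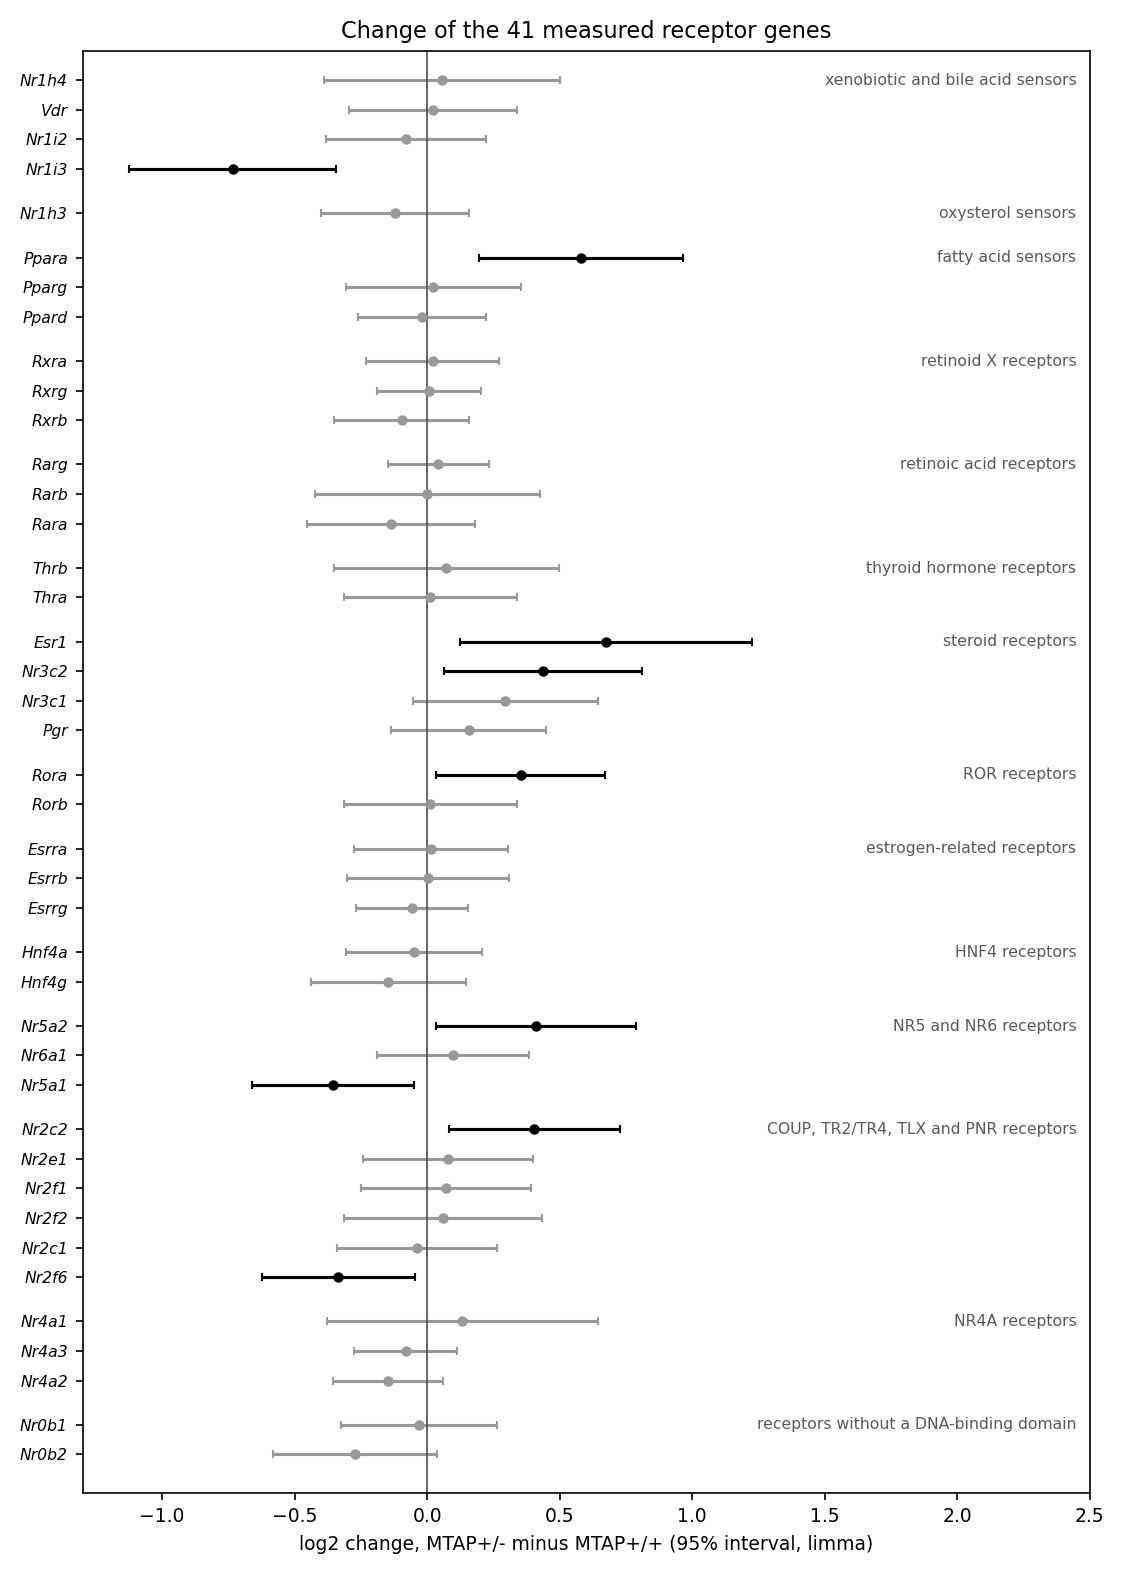
Log2 change of each measured receptor gene, MTAP+/- minus MTAP+/+, as the limma estimate with its 95% interval, grouped by the kind of receptor. Black marks the 9 genes with an unadjusted p under 0.05, whose intervals leave out 0, and grey marks the rest; Nr1i3 lies farthest to the left at -0.73 and Esr1 farthest to the right at 0.67.

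Promoter windows are shown for 3 receptor genes that recur below, and all their printed bases lie outside annotated transcripts. Windows of Esr1 and Nr2f6 met that condition too and are not printed. Esr1 held none of the letters marked below, and Nr2f6 held GGGTCA. The 3 printed are Nr1i3, the lowest member, Nr5a2, 1 of the higher members, and Nr0b2, the repressor that acts on Nr5a2 in bile acid synthesis. The sequences are RefSeq sequences of build GRCm38.p6, 5′ to 3′ on the strand of the gene, at chr1:171213720-171213933 (plus strand), chr1:136960449-136960698 (minus strand) and chr4:133553126-133553375 (plus strand). The 36 bases nearest the Nr1i3 start overlap an annotated transcript and are left out, so its printed sequence ends short of the start. Capitals mark CACGTG, the E-box bound by the clock proteins CLOCK and BMAL1, and AGGTCA and GGGTCA, core letters of many receptor elements, each searched on both strands.
Nr1i3: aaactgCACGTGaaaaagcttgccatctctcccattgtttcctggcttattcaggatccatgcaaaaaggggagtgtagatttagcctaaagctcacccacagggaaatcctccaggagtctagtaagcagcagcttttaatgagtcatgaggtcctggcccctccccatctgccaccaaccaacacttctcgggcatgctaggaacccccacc
Nr5a2: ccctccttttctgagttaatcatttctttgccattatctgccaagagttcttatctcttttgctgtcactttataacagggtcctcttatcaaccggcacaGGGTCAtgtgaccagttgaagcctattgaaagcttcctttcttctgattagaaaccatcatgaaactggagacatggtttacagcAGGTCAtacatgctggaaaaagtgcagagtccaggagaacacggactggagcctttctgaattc
Nr0b2: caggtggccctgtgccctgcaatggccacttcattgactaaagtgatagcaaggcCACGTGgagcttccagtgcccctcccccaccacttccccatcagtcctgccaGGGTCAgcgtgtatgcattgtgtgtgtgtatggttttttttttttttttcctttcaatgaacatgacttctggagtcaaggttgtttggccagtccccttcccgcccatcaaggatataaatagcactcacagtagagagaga
The CACGTG letters lie 244 bases before the start site in Nr1i3 and 195 bases before it in Nr0b2. Nr5a2 holds GGGTCA 149 bases and AGGTCA 64 bases before its start, and Nr0b2 holds GGGTCA 143 bases before its start. The 40 receptor genes that have a window have 61 in all. CACGTG was in 4 of these 61 (6.56%; Nr0b2, Nr1i3, Rara and Thrb) and in 6.02% of all 32851 windows of 250 bases. AGGTCA was in 16.4% of receptor gene windows and 14.0% of all, and GGGTCA in 18% and 11.6%. These matches are letters in a window and say nothing of binding.

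Among the sensors of foreign compounds and bile acids, Nr1i3 had the largest difference. It encodes CAR, the constitutive androstane receptor, which induces drug-metabolising enzymes. Its signal was 8.25, 7.97, 7.99 and 7.28 in heterozygous livers 1 to 4 and 8.66, 8.58, 8.51 and 8.67 in wild-type livers 1 to 4. Every heterozygous liver lay below every wild-type liver, the wild-type livers lay close together (SD 0.07, n = 4), and the heterozygous livers spread more (SD 0.41, n = 4), with liver 4 the lowest. The log2 change was -0.73 ± 0.18 (SE), which puts the heterozygous mean at 60.1% of wild type with a 95% interval of 45.8% to 78.9%. The Benjamini-Hochberg adjusted p in limma was 0.236, and the exact permutation p was 0.0286, the smallest that 4 against 4 allows. The unadjusted p stayed under 0.05 without any 1 array in turn, with changes from -0.86 to -0.54. In bulk liver, fewer cells of a type and less RNA per cell cannot be told apart.

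The 3 other measured sensors of that group had intervals that took in 0. Nr1i2 encodes PXR, the pregnane X receptor, which shares many targets with CAR. Its log2 change was -0.08 ± 0.14 (SE), from 6.42 to 7.02 in heterozygous and 6.63 to 6.80 in wild-type livers, and its other probe set gave -0.07. Nr1h4 encodes FXR, the bile acid receptor, and its change was 0.06 ± 0.20 (SE), from 8.34 to 8.98 against 8.08 to 8.96. Without wild-type liver 1, the lowest, that of Nr1h4 turned to -0.12. Vdr, the vitamin D receptor, was dim and was at 0.02 ± 0.14 (SE).

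Cyp2b10, the cytochrome P450 best known as a CAR target, was also lower. Its signal was 6.39, 6.36, 5.80 and 5.44 in heterozygous livers and 7.72, 6.87, 8.19 and 7.14 in wild-type livers, with no overlap and a log2 change of -1.49 ± 0.29 (SE; limma adjusted p = 0.167). Heterozygous liver 4 had the lowest signal of both Nr1i3 and Cyp2b10. The rest of the CAR and PXR target list did not share that size of difference. Of its 26 genes 20 were measured, 9 higher and 11 lower with a median of -0.10, and 2 of 20 (10%) had an unadjusted p under 0.05, both lower, a share near the 9.14% of all genes. The other was Sult1d1, a sulfotransferase, at -0.39 ± 0.16 (SE). Cyp3a11, the main PXR target, was at -0.15 ± 0.10 (SE) and Alas1, the first enzyme of haem synthesis, at -0.69 ± 0.37 (SE), neither of them at an unadjusted p under 0.05.

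**Figure D2:**
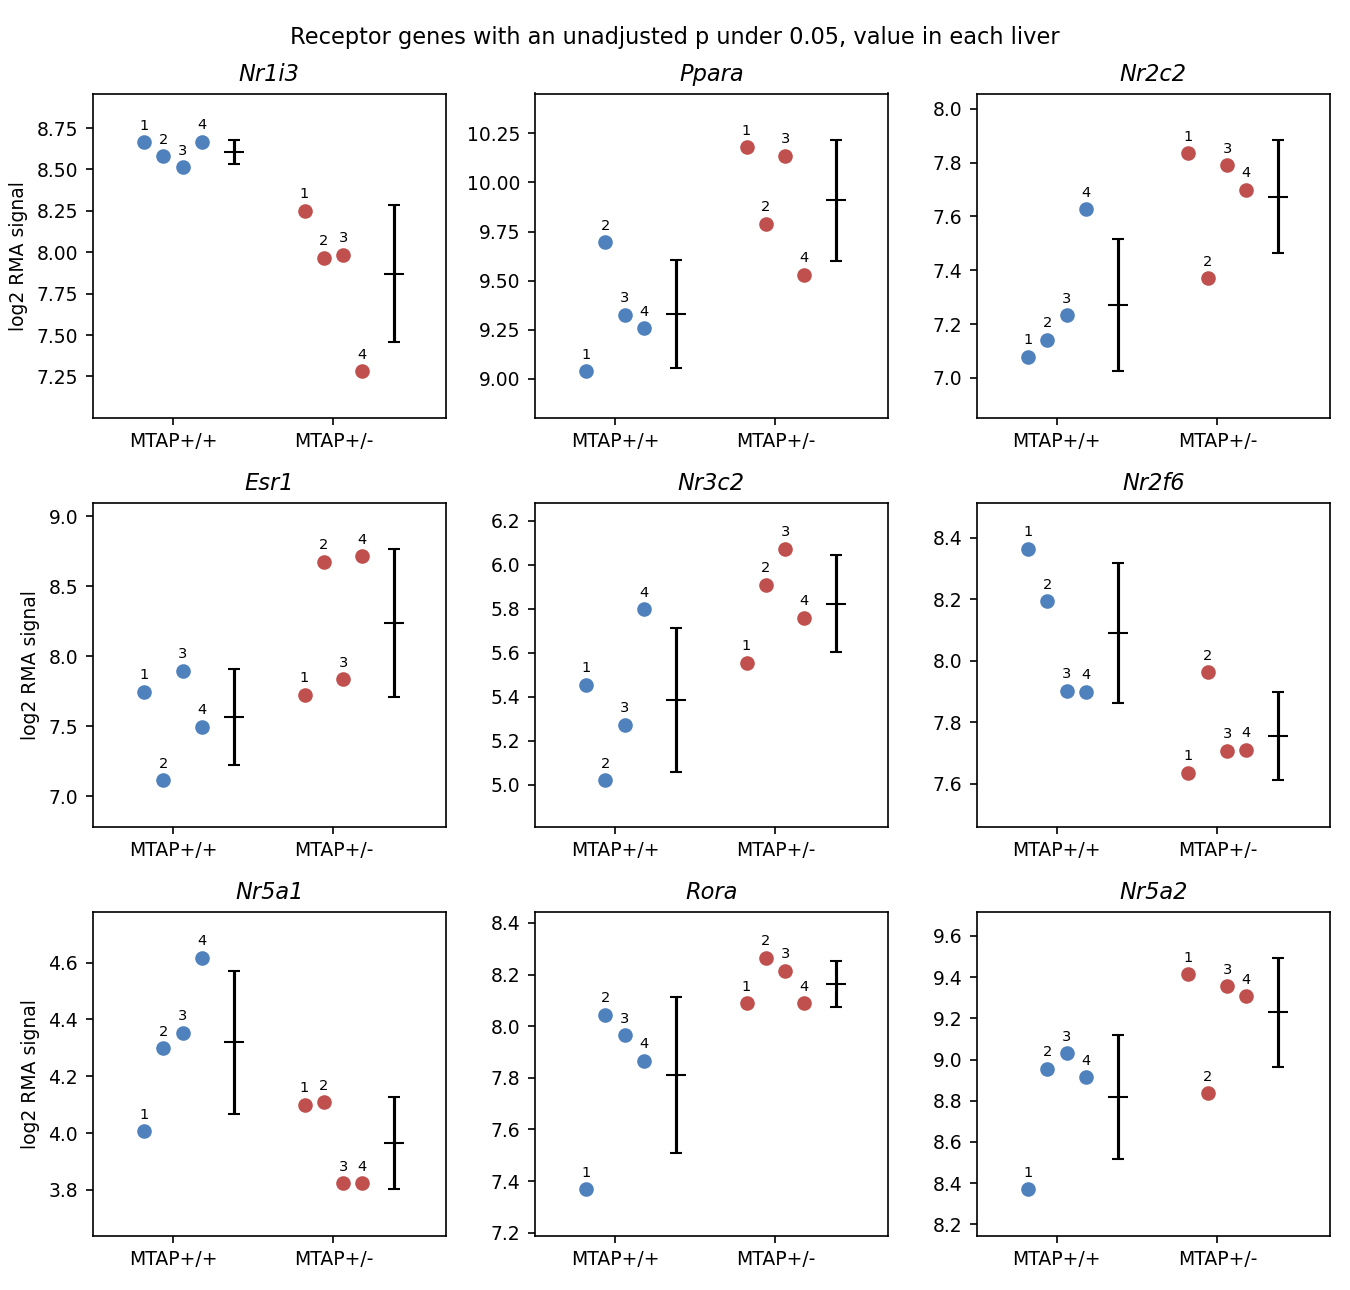
Log2 signal in each liver for the 9 receptor genes with an unadjusted p under 0.05; numbers are the replicate numbers of the labels, and the bars beside the points are the mean and SD of 4 livers. Groups are separate for Nr1i3 and Rora and overlap for the other 7, and for Esr1 heterozygous livers 2 and 4 lie above the rest while 1 and 3 lie inside the wild-type range.

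Ppara was the receptor gene with the next smallest p. It encodes PPAR-alpha, the fatty acid sensor that drives fatty acid oxidation and ketone production in fasting. Its signal was 10.18, 9.79, 10.14 and 9.53 in heterozygous livers 1 to 4 and 9.04, 9.70, 9.33 and 9.26 in wild-type livers 1 to 4. Wild-type liver 2 lay above heterozygous liver 4, so the groups overlapped by that pair. The log2 change was 0.58 ± 0.17 (SE), or 149% of wild type with a 95% interval of 114% to 195% (limma adjusted p = 0.336, exact permutation p = 0.0571). All 3 Ppara probe sets were higher, by 0.41, 0.58 and 0.65, each at an unadjusted p under 0.05, and in the probe set with 0.65 the groups did not overlap. Leaving out each array in turn gave 0.48 to 0.71 with p under 0.05 each time.

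Pparg, the PPAR of fat cells, was at 0.02 ± 0.15 (SE), and Ppard, the more widely expressed one, was dim, at -0.02 ± 0.11 (SE). The other Ppard probe set, of nearly equal brightness (4.92 against 4.95), gave -0.50 ± 0.25 (SE; limma unadjusted p = 0.0729). In that probe set wild-type liver 1 was at 6.00 and the rest lay between 4.37 and 5.08. Targets of PPAR-alpha differed in both directions. Of 22 listed genes 18 were measured, with 8 higher and 10 lower, a median of -0.05, and 5 of 18 (27.8%, beside 9.14% of all genes) at an unadjusted p under 0.05, 2 higher and 3 lower. The largest difference was in Pdk4, a kinase that restrains pyruvate oxidation, which was 5.49, 5.99, 4.95 and 5.63 in heterozygous and 7.63, 6.97, 6.94 and 6.49 in wild-type livers, without overlap (log2 change -1.49 ± 0.25 SE, limma adjusted p = 0.111). Cpt1a, the gate of mitochondrial fatty acid import, was at 0.28 ± 0.09 (SE), and Ehhadh, of peroxisomal oxidation, at 0.26 ± 0.10 (SE). Acaa1b, a peroxisomal thiolase, was at -0.38 ± 0.14 (SE). Groups did not overlap for 5 of the 18, Cpt1a, Acot2 and Ehhadh on the higher and Pdk4 and Acaa1b on the lower side, beside 4.64% of all genes.

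Nr1h3 encodes LXR-alpha, the oxysterol sensor that promotes cholesterol export. Its signal ran from 7.86 to 8.42 in heterozygous and from 8.14 to 8.38 in wild-type livers, with heterozygous liver 1 lowest and heterozygous liver 2 highest, and its log2 change was -0.12 ± 0.13 (SE). Its target list leaned the other way. Of 14 listed genes 13 were measured, 10 higher and 3 lower with a median of 0.31, beside -0.02 over all genes. An unadjusted p under 0.05 was found for 4 of 13 (30.8%, beside 9.14% of all genes). All 4 were higher and without overlap, though Abcg5 only by a near tie. Abcg5 and Abcg8, whose products form the transporter that secretes sterols into bile, were at 0.73 ± 0.22 (SE) and 0.58 ± 0.13 (SE).

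Per liver, Abcg8 was 8.10, 8.44, 8.09 and 7.96 in heterozygous and 7.36, 7.64, 7.49 and 7.80 in wild-type livers (limma adjusted p = 0.232). Abcg5 was 8.57, 9.53, 8.78 and 8.452 against 7.90, 8.07, 7.99 and 8.45, so liver 4 of each genotype was nearly tied. Heterozygous liver 2, which stood apart in array structure, was highest for both transporter genes. Abca1, which loads cholesterol onto apolipoproteins, was at 0.42 ± 0.14 (SE) and Lpcat3, a phospholipid acyltransferase, at 0.31 ± 0.13 (SE). Srebf1, the lipogenic LXR target, was at 0.14 ± 0.26 (SE). The list also holds Nr1h3 itself. Abca1, Lpl and Pltp are expressed by macrophages as well. Markers of those cells averaged 8.31 in heterozygous and 8.07 in wild-type livers, with overlapping ranges. The part of those cells in the result was not tested.

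Nr5a2 and Nr0b2 act on each other in bile acid control. Nr5a2 encodes LRH-1, a monomer binder that activates bile acid synthesis genes. Its signal was 9.41, 8.84, 9.36 and 9.31 in heterozygous and 8.37, 8.96, 9.03 and 8.92 in wild-type livers. Heterozygous livers 1, 3 and 4 lay above all wild-type livers, and heterozygous liver 2 lay below 3 of them. The log2 change was 0.41 ± 0.17 (SE; limma adjusted p = 0.501, exact permutation p = 0.114). All 4 Nr5a2 probe sets were higher, from 0.22 to 0.54, and at an unadjusted p under 0.05 in 2 cases. The unadjusted p rose above 0.05 without any of heterozygous livers 1, 3 and 4 or wild-type liver 1, and without the last the change was 0.26.

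Nr0b2 encodes SHP, a receptor without a DNA-binding domain that represses others, LRH-1 among them, and is itself induced by FXR. Its signal was 9.28, 9.84, 9.76 and 9.80 in heterozygous and 9.86, 9.77, 10.02 and 10.11 in wild-type livers, a log2 change of -0.27 ± 0.14 (SE; limma adjusted p = 0.606). Heterozygous liver 1 was well under the other 3 heterozygous livers, and without it the change was -0.14. The related Nr0b1 was dim and at -0.03 ± 0.13 (SE). Of the 14 FXR and SHP targets, 10 were lower and 4 higher with a median of -0.11. An unadjusted p under 0.05 was found for 5 (35.7%, beside 9.14% of all genes), all lower. Among those 5, Fgf15 was dim, at 3.62 in heterozygous and 3.88 in wild-type livers (log2 change -0.26 ± 0.11 SE). The list joins targets of FXR and of the repressor SHP, so a shared direction has no single reading.

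Cyp8b1, the sterol 12-hydroxylase that sets the share of cholic acid, was 10.63, 8.58, 10.45 and 9.95 in heterozygous and 11.25, 10.37, 11.11 and 11.07 in wild-type livers. Heterozygous liver 2, which stood apart in array structure, was far below the others, and heterozygous livers 1 and 3 lay above wild-type liver 2 alone. Its log2 change was -1.05 ± 0.38 (SE; limma adjusted p = 0.437, exact permutation p = 0.0857). Slc51b, part of the bile acid exporter of the basolateral membrane, was at -0.54 ± 0.19 (SE). Abcb4, which flips phospholipid into bile, was at -0.40 ± 0.14 (SE) and Cyp27a1, of the alternative bile acid pathway, at -0.30 ± 0.11 (SE), both without overlap. Cyp7a1, the rate-limiting enzyme of bile acid synthesis, was at -0.07 ± 0.28 (SE).

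All 4 measured steroid receptors had a positive change, with a median of 0.37, and the unadjusted p was under 0.05 for 2. Over all genes 8247 of 18193 were higher, and 9.14% reached that p, or 13.7% of those above the signal of the median gene. Esr1, the estrogen receptor alpha gene, was 7.72, 8.67, 7.84 and 8.72 in heterozygous and 7.75, 7.11, 7.90 and 7.495 in wild-type livers. Heterozygous livers 2 and 4 stood above the rest, and heterozygous livers 1 and 3 lay inside the wild-type range. The log2 change was 0.67 ± 0.25 (SE; limma adjusted p = 0.441, exact permutation p = 0.143), and the unadjusted p exceeded 0.05 without heterozygous liver 2, heterozygous liver 4 or wild-type liver 2. Its other 2 probe sets gave 0.18 and 0.07, and 0.31 was the change of the mean of all 3.

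Nr3c2 encodes the mineralocorticoid receptor. Its only probe set was 5.55, 5.91, 6.07 and 5.76 in heterozygous and 5.45, 5.02, 5.27 and 5.80 in wild-type livers, a log2 change of 0.44 ± 0.17 (SE; limma adjusted p = 0.459, exact permutation p = 0.0857). Wild-type liver 4 lay among the heterozygous livers, and the unadjusted p exceeded 0.05 without heterozygous liver 2 or 3 or wild-type liver 2 or 3. Nr3c1, the glucocorticoid receptor gene, was 8.56, 8.51, 8.45 and 8.65 in heterozygous and 7.84, 8.65, 8.11 and 8.38 in wild-type livers, at 0.29 ± 0.16 (SE; limma adjusted p = 0.626). The heterozygous livers agreed closely (SD 0.09, n = 4) and the wild-type livers did not (SD 0.35, n = 4), with liver 1 lowest and liver 2 as high as any. Without wild-type liver 1 the Nr3c1 change was 0.16. Pgr, the progesterone receptor gene, was dim, at 0.16 ± 0.13 (SE).

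Glucocorticoid receptor targets did not move as one. Of 17 listed genes 16 were measured, 9 higher and 7 lower, with a median of 0.14 and 4 (25.0%, beside 9.14% of all genes) at an unadjusted p under 0.05. The metallothionein genes Mt1 and Mt2, which bind metals and also answer to zinc and inflammation, were at 3.15 ± 0.62 (SE) and 2.52 ± 0.63 (SE), both without overlap. Mt1 was 8.93, 10.67, 7.79 and 11.26 in heterozygous livers and 6.75, 5.97, 6.83 and 6.49 in wild-type livers, so heterozygous livers 2 and 4 were highest, as for Esr1. Tsc22d3, or GILZ, a direct glucocorticoid target, was at -0.74 ± 0.26 (SE), and Fkbp5, another, at -0.01 ± 0.15 (SE). Nfkbia, the NF-kappa-B inhibitor gene, was at 0.28 ± 0.11 (SE).

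Rora encodes ROR-alpha, an activator that competes with the REV-ERB repressors for the same DNA elements. Its signal was 8.09, 8.27, 8.21 and 8.09 in heterozygous and 7.37, 8.05, 7.97 and 7.87 in wild-type livers. The groups did not overlap, but heterozygous livers 1 and 4 lay just above wild-type liver 2, and wild-type liver 1 was far below the rest. The log2 change was 0.35 ± 0.14 (SE; limma adjusted p = 0.486, exact permutation p = 0.0286), and 0.21 without wild-type liver 1. Rorb, which is known from brain and retina, was dim, at 0.01 ± 0.15 (SE).

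The 9 Rora probe sets did not share a direction. On the higher side were 7, of which 3 reached an unadjusted p under 0.05, while the lowest was at -0.30 and the highest at 0.51. Both lower probe sets shared a pattern over the livers that cut across the genotypes. The brighter of them was 7.84, 7.86 and 7.80 in heterozygous liver 2 and wild-type livers 2 and 3, and between 6.60 and 6.99 in the other 5. The dimmer was 6.75, 6.79 and 7.01 in the same 3 livers, and between 5.44 and 5.74 in the other 5. A probe set of Nr3c1 had a like split, at 6.42 and 6.46 in heterozygous liver 2 and wild-type liver 2 and between 5.39 and 5.77 elsewhere. These were singled out after their values were seen.

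**Figure D3:**
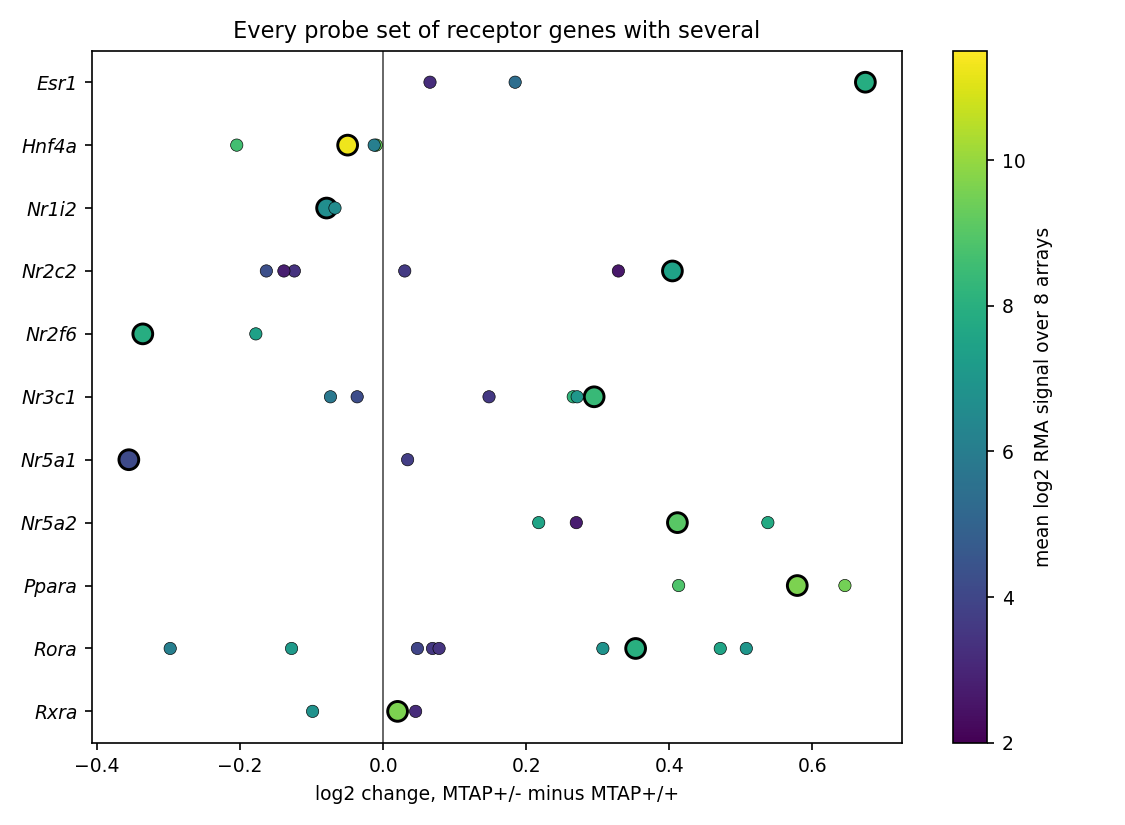
Log2 change, MTAP+/- minus MTAP+/+, of every probe set of 11 receptor genes that have several, coloured by mean log2 signal over 8 arrays; the large ringed point is the probe set that represents the gene. The 3 Ppara and 4 Nr5a2 probe sets all lie above 0, whereas those of Rora run from -0.30 to 0.51 and those of Nr2c2 from -0.16 to 0.40.

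Genes known to be read through the shared ROR and REV-ERB elements had mostly negative changes. Of 13 listed 12 were measured, 10 lower and 2 higher with a median of -0.50, and 7 (58.3%) had an unadjusted p under 0.05, all lower. Over all genes 9946 of 18193 were lower, with 9.14% at that p and 4.74% both at that p and lower. Arntl, which encodes BMAL1, was 4.82, 5.56, 4.98 and 5.93 in heterozygous and 7.18, 7.05, 6.82 and 6.28 in wild-type livers (log2 change -1.51 ± 0.26 SE, limma adjusted p = 0.111). Nfil3 and Cry1, also clock genes, were at -1.10 ± 0.22 (SE) and -0.89 ± 0.21 (SE), and Elovl3, a fatty acid elongase, at -1.04 ± 0.19 (SE), all 3 without overlap. Of the REV-ERB genes, Nr1d2 was at 0.95 ± 0.28 (SE; limma adjusted p = 0.325) and Nr1d1 at 0.13 ± 0.16 (SE), the former highest in heterozygous livers 1 and 3 (9.86 and 9.95) and lowest in wild-type livers 1 and 3.

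A clock score was therefore set beside the receptor values. It is the mean of 9 evening clock genes minus that of 5 night clock genes, each centred over the 8 arrays. No receptor gene of the 41 is in it, but Nr1d1 and Nr1d2 are among its evening genes. Its 5 night genes (Arntl, Npas2, Clock, Cry1 and Nfil3) all stand in the ROR and REV-ERB target list above. The score was thus built partly from genes already seen to differ, so a smaller change beside it cannot be read as a separate result. It was 1.03, 0.90, 0.97 and -0.01 in heterozygous and -1.16, -0.65, -0.80 and -0.28 in wild-type livers, so it separated the genotypes and the parts of each cannot be told apart well in 8 livers. With the score as a covariate in limma, Ppara was at -0.08, Rora at -0.01, Nr2c2 at 0.10, Nr5a2 at 0.17, Nr3c2 at 0.21 and Nr2f6 at -0.13. Those 6 differences were smaller once the score was in the fit, and their unadjusted p exceeded 0.05. Nr1i3 was at -1.51, Esr1 at 1.57 and Nr5a1 at -0.87, all larger than without it and at an unadjusted p under 0.05, with a limma adjusted p of 0.652 for Nr1i3. No gene of the 18193 passed the threshold in that fit.

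**Figure D4:**
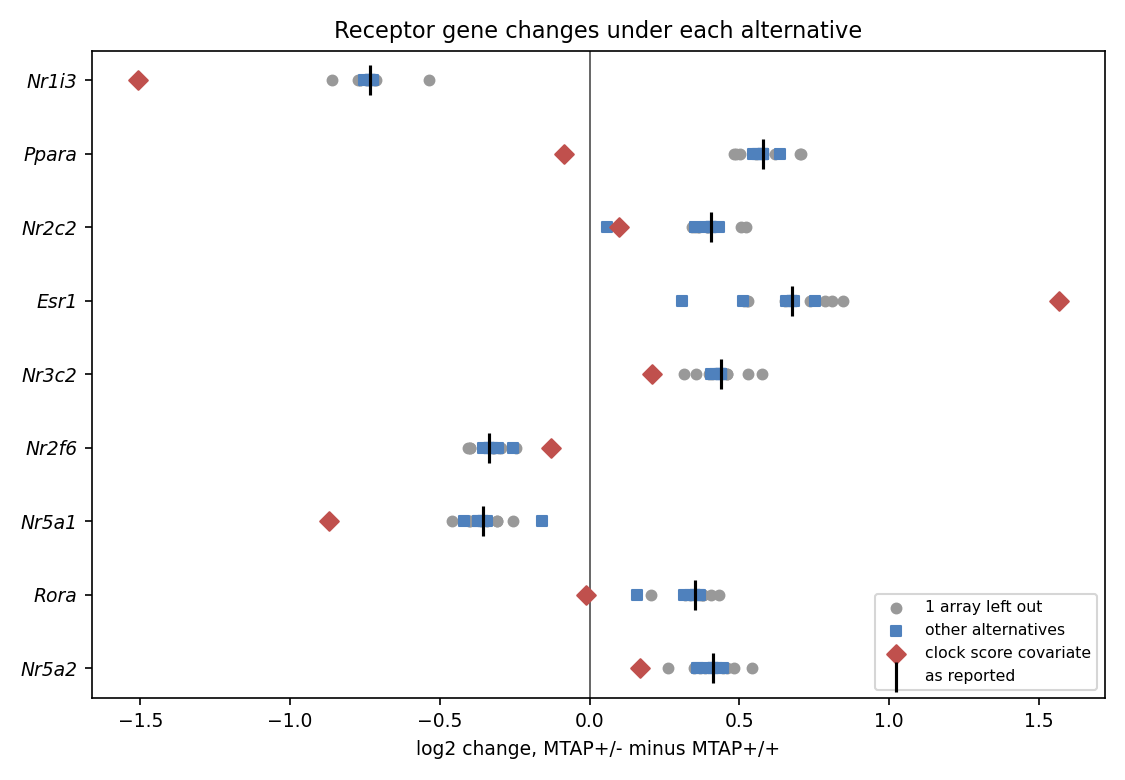
Log2 change, MTAP+/- minus MTAP+/+, of the 9 receptor genes with an unadjusted p under 0.05 as reported (black bar), with 1 array left out (grey circles), with the clock score as a covariate (red diamonds) and under the other alternatives (blue squares). The covariate takes Ppara from 0.58 to -0.08 and Rora from 0.35 to -0.01, and takes Nr1i3 from -0.73 to -1.51 and Esr1 from 0.67 to 1.57.

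Among the dimer partners and the retinoid and thyroid receptors no gene had an unadjusted p under 0.05 in limma. Rxra, the main retinoid X receptor of liver and partner of CAR, PXR, FXR, LXR and the PPARs, was 9.42, 9.80, 9.68 and 9.60 in heterozygous and 9.64, 9.49, 9.51 and 9.77 in wild-type livers, a log2 change of 0.02 with a 95% interval of -0.23 to 0.27. Rxrb was at -0.10 and Rxrg at 0.01. The retinoic acid receptor genes Rara, Rarb and Rarg were at -0.14, 0.00 and 0.04, the last with an SD of 0.04 in each group. Rara and Rarb were dim.

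Thrb, the thyroid hormone receptor gene most used by liver, was dim, at 0.07 ± 0.19 (SE). However, 7 livers lay between 4.64 and 4.95 and wild-type liver 1 at 3.99, and without that liver the Thrb change was -0.16. Thra, the other thyroid hormone receptor gene, was at 0.01 ± 0.15 (SE). Of the 9 thyroid hormone receptor targets, all measured, 7 were lower and 2 higher with a median of -0.45, and 5 (55.6%, beside 9.14% of all genes) had an unadjusted p under 0.05, all lower. Idh3a, a subunit of a citric acid cycle dehydrogenase, was 8.72, 8.69, 8.84 and 8.67 against 9.33, 9.21, 9.01 and 9.07, without overlap (log2 change -0.43 ± 0.10 SE, limma adjusted p = 0.234). Me1, the cytosolic malic enzyme, was at -0.70 ± 0.28 (SE), Gpd2, the mitochondrial glycerophosphate dehydrogenase, at -0.49 ± 0.19 (SE) and Slc16a10, a transporter of thyroid hormone, at -0.45 ± 0.14 (SE). Klf9, a further hormone target, was at 0.30 ± 0.16 (SE).

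Of the 11 retinoic acid targets 9 were measured, 6 lower and 3 higher with a median of -0.15, and 2 (22.2%, beside 9.14% of all genes) had an unadjusted p under 0.05, both lower. Cyp26a1, which degrades retinoic acid, was at -0.71 ± 0.28 (SE), and Stra6, the retinol transporter gene, was dim and at -0.28 ± 0.11 (SE).

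Hnf4a encodes a receptor that holds much of the hepatocyte programme in place. It was 11.14, 11.13, 11.40 and 11.22 in heterozygous and 11.43, 11.37, 11.02 and 11.28 in wild-type livers, a log2 change of -0.05 with a 95% interval of -0.31 to 0.21, and its 4 probe sets ran from -0.20 to -0.01. Hnf4g was dim and at -0.15 ± 0.13 (SE). Of 13 HNF4A targets 11 were measured, 5 higher and 6 lower with a median of -0.01, and 1 (9.09%, beside 9.14% of all genes) had an unadjusted p under 0.05, namely Pklr, the liver pyruvate kinase gene, at -0.61 ± 0.24 (SE). The estrogen-related receptor genes Esrra, Esrrb and Esrrg, which act in mitochondrial metabolism, were at 0.01, 0.00 and -0.06, the last of them dim.

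In the COUP, TR2 and TR4 group, Nr2c2 and Nr2f6 differed at an unadjusted p under 0.05, in opposite directions. Nr2c2 encodes TR4, which binds direct repeats that other receptors also use. It was 7.84, 7.37, 7.79 and 7.70 in heterozygous and 7.08, 7.14, 7.23 and 7.63 in wild-type livers, a log2 change of 0.40 ± 0.15 (SE; limma adjusted p = 0.431, exact permutation p = 0.0571). Its 4 highest livers, heterozygous 1, 3 and 4 and wild-type 4, are the 4 that lay together on the first principal component. Its 5 other probe sets were dimmer and ran from -0.16 to 0.33, and the change of the mean of all 6 was 0.06. The unadjusted p exceeded 0.05 without heterozygous liver 1 or 3 or wild-type liver 1.

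Nr2f6 encodes EAR2, a repressor of the COUP-TF kind. It was 7.64, 7.96, 7.71 and 7.71 in heterozygous and 8.36, 8.19, 7.90 and 7.90 in wild-type livers, a log2 change of -0.34 ± 0.13 (SE; limma adjusted p = 0.460, exact permutation p = 0.0857). Heterozygous liver 2 lay above wild-type livers 3 and 4, and the other 3 heterozygous livers lay below all wild-type livers. Its other probe set gave -0.18, and the unadjusted p exceeded 0.05 without any of heterozygous livers 1, 3 and 4 or wild-type livers 1 and 2. Nr2f2, or COUP-TFII, was at 0.06 by its brightest probe set, whereas 2 of its other 5 gave 0.47 each at an unadjusted p under 0.05. Nr2c1 was at -0.04, and the dim Nr2f1 and Nr2e1 were at 0.07 and 0.08.

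Nr5a1 encodes SF-1, known from adrenal and gonad rather than liver. Its probe set was dim, at 4.10, 4.11, 3.82 and 3.82 in heterozygous and 4.01, 4.30, 4.35 and 4.62 in wild-type livers, with wild-type liver 1 among the heterozygous ones. The log2 change was -0.36 ± 0.14 (SE; limma adjusted p = 0.461, exact permutation p = 0.0857), and its other probe set gave 0.03. The unadjusted p exceeded 0.05 without heterozygous liver 3 or 4 or wild-type liver 3 or 4. Nr6a1, the germ cell nuclear factor gene, was at 0.10 ± 0.13 (SE). The NR4A genes, which respond early to stimuli such as glucagon, were at 0.13 for Nr4a1, -0.15 for Nr4a2 and -0.08 for Nr4a3. Another Nr4a2 probe set, of nearly equal brightness (5.197 against 5.215), gave -0.21 ± 0.09 (SE; limma unadjusted p = 0.0419) without overlap. Of the 6 Nr4a2 probe sets 5 were lower and 1 higher, with only that 1 at an unadjusted p under 0.05. Nr4a1 varied widely in both groups, from 6.15 to 7.12 and from 6.09 to 6.88.

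Coregulators are the proteins that receptors recruit. All 14 coactivator genes were measured, with 11 higher and 3 lower, a median of 0.10 and 1 (7.14%, under the 9.14% of all genes) at an unadjusted p under 0.05, Ncoa4, also a carrier of ferritin to lysosomes, at 0.48 ± 0.19 (SE). Ppargc1a and Ppargc1b, partners of PPAR-alpha and the estrogen-related receptors, were at 0.51 ± 0.36 (SE) and 0.52 ± 0.28 (SE), and Ppargc1a was 7.24 in heterozygous liver 2 against 5.05 to 6.55 in the other 7. Of 10 corepressor genes 8 were measured, 7 higher and 1 lower with a median of 0.18, and 2 (25.0%, beside 9.14% of all genes) had an unadjusted p under 0.05, Lcor, the ligand-dependent corepressor, at 0.48 ± 0.20 (SE) and Sin3a, a scaffold of deacetylase complexes, at 0.27 ± 0.11 (SE). Over all genes 8247 of 18193 were higher. No gene of any partner or target list passed an adjusted p under 0.05 in limma, so these counts describe 8 livers. Some genes stand in several lists, such as Cyp8b1, Cyp7a1, Fgf21 and Rarb. The clock score shares its 5 night genes, Nr1d1 and Per1 with these lists.

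**Figure D5:**
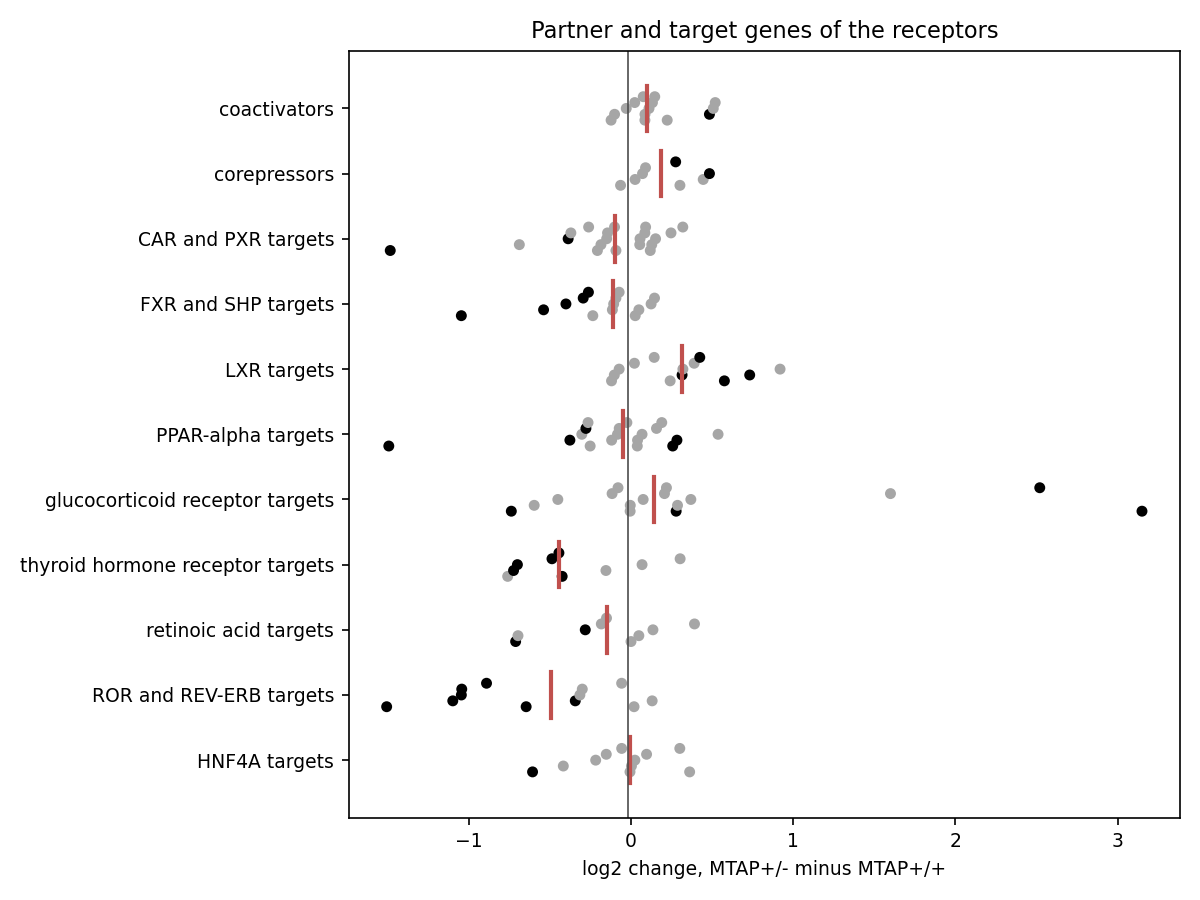
Log2 change, MTAP+/- minus MTAP+/+, of each measured gene of the coregulator and target lists; black points have an unadjusted p under 0.05, red bars are list medians and the grey line is the median of all genes, -0.02. Medians run from -0.50 for ROR and REV-ERB targets and -0.45 for thyroid hormone receptor targets to 0.31 for LXR targets.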

How the data were processed

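Expression was measured in 8 livers, 4 per genotype, on 1 Affymetrix mouse array each. The authors deposited log2 signals per probe set, made with RMA per the submitters' processing notes; its version and settings: not given in the sources used here. Values ran on a log2 scale, 1.64 to 14.7, with array medians of 3.91 to 3.97. Differences of dim probe sets are likely too small after RMA.

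Of 45101 probe sets, 64 controls were left out, and 34945 carried 1 symbol in the platform annotation, 932 several and 9160 none. This gave 18193 genes, each by its brightest probe set. All 41 measured receptor genes matched RefSeq symbols (GRCm38.p6). Genotypes were compared with limma 3.58.1 (lmFit, eBayes, two-sided, R 4.3.3) over all genes, with Benjamini-Hochberg adjustment and a threshold of 0.05, and single values with exact two-sided permutation tests. The fit was tested on simulated data.

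Named were receptor genes with an unadjusted p under 0.05 or separate groups, 12 receptors central to liver physiology, both REV-ERB genes and Mtap. Up to 4 genes of smallest p per list were also named. Cyp3a11, Acot2, Srebf1, Lpl, Pltp, Cyp7a1, Fgf15, Fkbp5, Klf9, single macrophage markers and single probe sets were named with their values known. The members and lists were chosen with earlier results of these data known.

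Alternatives were other gene summaries, no cross-hybridising probe sets, a dim-gene filter, trended and robust eBayes, array weights, renewed quantile normalisation, centring, a replicate block, clock score and 3' minus 5' covariates, each array left out, and a looser threshold. The mice are separate animals; litter, batch and collection time are not given, and the number of arrays limits precision.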

Additional observations from a re-analysis of the deposited data

Results flagged for a closer look

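In 6 of 82 groups of 4 livers, 1 liver stood far from the other 3 for its gap over the range of the group, and chance alone gives this in about 1 in 20 groups. The lower livers were heterozygous liver 1 for Nr0b2, at 9.28 against 9.76 to 9.84, wild-type liver 1 for Thrb, at 3.99 against 4.86 to 4.95, and heterozygous liver 3 for Esrra, at 6.35 against 6.49 to 6.52. The higher livers were heterozygous liver 1 and wild-type liver 3 for Esrrb, at 5.53 against 5.24 to 5.28 and 5.72 against 5.17 to 5.23, and heterozygous liver 3 for Rxrg, at 5.81 against 5.68 to 5.69. None of these 5 genes had an unadjusted p under 0.05 in limma.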

How the results depend on the processing

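Under all 20 alternatives 0 receptor genes passed the threshold, including an adjusted p under 0.10 and a fit over all probe sets. Genes past it, 9 as reported, were 0 with the clock score covariate, 2 with dim genes left out, 4 with the mean of probe sets and 3 to 20 with 1 array left out. Receptor genes at an unadjusted p under 0.05, 9 as reported, were 4 with the clock score covariate, 5 with the mean of probe sets and 3 to 8 with 1 array left out. The count over all genes, 1662 as reported, was 587, 1567 and 1140 to 2221 in these fits. Nr1i3 kept an unadjusted p under 0.05 in 18 of 18 alternatives and Ppara in 17 of 18, the exception being the clock score. Some changes turned sign. With the clock score covariate these were Ppara (0.58 to -0.085) and Rora (0.35 to -0.012), both at an unadjusted p under 0.05 as reported, and Thrb (-0.58), Nr1h3 (0.088), Nr1h4 (-0.16) and Rxra (-0.052). With array weights they were Hnf4a (0.019) and Rxra (-0.012), and with the mean of probe sets Rxra (-0.011). With 1 array left out the range was -0.13 to 0.0016 for Hnf4a, -0.12 to 0.17 for Nr1h4, -0.038 to 0.089 for Rxra and -0.16 to 0.16 for Thrb. Why these changed was not tested. Receptor genes with separate groups, 2 as reported, were 1 with the mean of probe sets or with centring and 2 to 6 with 1 array left out (6 without wild-type liver 1), where smaller groups overlap less and the count over all genes went from 845 to between 1200 and 2085. Same-numbered livers of both genotypes did not deviate together (correlations of -0.10, 0.15, 0.03 and 0.14), so the numbers were not taken to pair mice. With a replicate block, 6 genes and 0 receptor genes passed the threshold. In that fit 9 receptor genes, and 1870 of all genes, had an unadjusted p under 0.05. Dim probe sets limit what could be seen for 13 of the 41.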
